A study of Arabidopsis thaliana with 148 samples.

Results

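This account concerns the total mRNA of Arabidopsis thaliana seedlings 3 h after the end of a heat stress. The members are libraries and were chosen by their labels alone: 3 recovery libraries and 3 control libraries from ZT57 (zeitgeber time, in hours), which are 6 of the 148 libraries of the series and belong to its recovery experiment of 48 libraries. Recovery seedlings had spent 1 h at 37 °C, ending at ZT54, and were then kept at 22 °C until ZT57. Control seedlings stayed at 22 °C and were harvested at the same ZT57. All seedlings were of the genotype p35S:HF-RPL18, in which the constitutive 35S promoter drives a tagged copy of ribosomal protein L18, so the controls carried the transgene too. They had grown on filter paper on MS medium with 1.5% sucrose at 22 °C for 10 days with 12 h of light a day, were then moved to constant light and were used on day 13. The study measured total mRNA and ribosome-bound mRNA (pulled down through the tag, TRAP) to follow how the response to heat depends on the time of day and how it recedes after the heat. Recovery was followed at 0, 1, 3 and 6 h (ZT54, ZT55, ZT57 and ZT60), each time with its own unheated controls.

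When a plant cell is heated, heat shock factors bind heat shock elements in promoters and switch on genes for chaperones. Small heat shock proteins hold unfolding proteins in a soluble state, HSP70, HSP90 and their partners refold them, HSP101 pulls aggregates apart, and a separate set of chaperones serves the endoplasmic reticulum. After the heat most of these transcripts decline within hours, while those of so-called memory genes, which help a plant survive a later heat stress, decline more slowly.

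The recovery libraries held 4307643 to 4688204 counts and the control libraries 4768903 to 6094875 counts. Replicates correlated with r = 0.968 to 0.972 within the recovery group and r = 0.968 to 0.971 within the control group, over log2 CPM of all genes tested (CPM, the depth-scaled count, here on library sizes adjusted by the TMM method). Organelle genes took 19.0 to 25.2% of the counts in recovery libraries and 27.0 to 34.5% in control libraries. Leaving these genes out gave 201 genes called higher and 224 called lower, close to the counts below. In the library labelled ZT60 control replicate 2, small heat shock proteins took 0.415% of the counts, against 0.0104 to 0.0193% in the other controls, so it went against its label and was left out except where stated. RPL18, whose reads may include the tagged copy, had a log2 fold change of −0.21 ± 0.12 (SE, as after every ± beside a log2 fold change) and was not called.

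At 3 h of recovery few genes were called as different from the controls. Of 20984 genes tested, 419 were called (2%): 197 rose (0.939%) and 222 fell (1.06%), at an adjusted p under 0.05 by edgeR's quasi-likelihood test, adjusted by the Benjamini-Hochberg method. Of these, 86 rose and 87 fell by more than 2-fold. In the same test 2584 genes were at an unadjusted p under 0.05, so genes that were not called may still differ. The same fit called 4930 genes higher and 4961 lower right after the heat (47.1% of genes), 2206 higher and 2223 lower at 1 h (21.1%), and 1044 higher (4.98%) and 1570 lower (7.48%) at 6 h. The larger count at 6 h than at 3 h rests on 2 controls at ZT60, and the 6 h values are given only beside those of 3 h. In 191 of the 197 genes that rose and 221 of the 222 that fell, no recovery library overlapped a control library; over all genes tested the recovery libraries lay wholly above the controls in 7.3% and wholly below in 8.32%. Fewer genes were called when recovery replicate 2 was left out (119 higher, 132 lower), without recovery replicate 3 (146 higher, 136 lower) or control replicate 1 (136 higher, 138 lower), and when the library that went against its label was kept (103 higher, 126 lower). In whole seedlings, fewer cells of a type and less RNA per cell cannot be told apart.

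**Figure D1:**
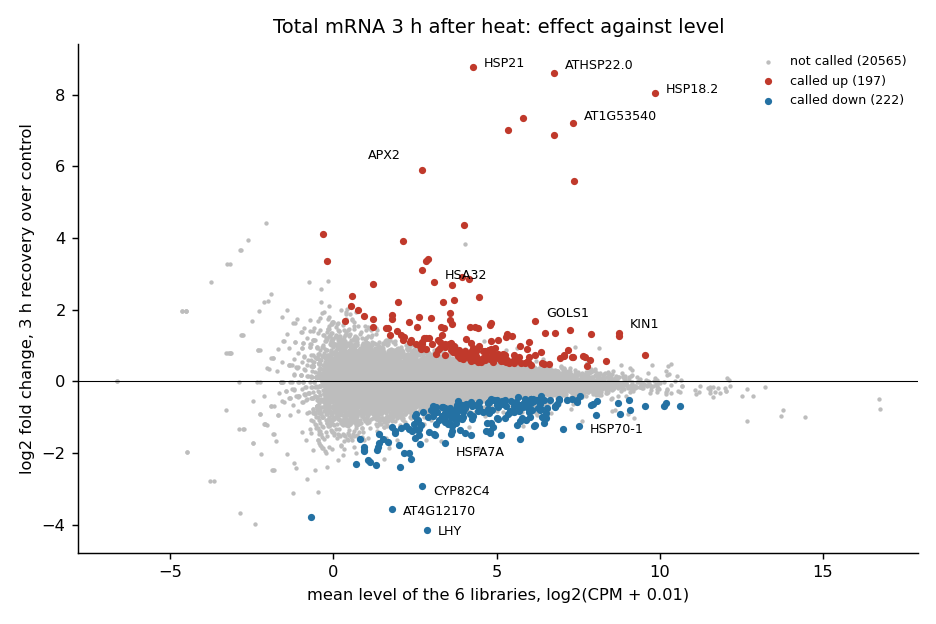
Log2 fold change of 3 h recovery over control (vertical axis) against the mean level of the 6 libraries as log2(CPM + 0.01) (horizontal axis), 1 point per gene; red points are the 197 genes that rose, blue the 222 that fell and grey those not called. The highest points are small heat shock proteins, up to 8.77 for HSP21, and LHY is the lowest of the named points at −4.14.

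Small heat shock proteins were the genes furthest above control. Of 19 tested, 13 rose and none fell, and the median log2 fold change was 3.12, against −0.01 over all genes tested. Summed over the list, they took 0.307 to 0.458% of the counts in recovery libraries and 0.0104 to 0.0142% in control libraries. HSP18.2, a cytosolic small heat shock protein (chr5:24062323-24063300, plus strand), had 1738, 2209 and 1550.2 CPM in recovery libraries, against 5.36, 5.39 and 10.3 CPM in control libraries. Every recovery library was far above every control, and HSP18.2 rose by 8.05 ± 0.29 on the log2 scale (adjusted p = 1.34e-17). HSP21, the plastid small heat shock protein (chr4:13818825-13819971, minus strand), had 24.9, 50.9 and 39.4 CPM in recovery libraries, against 0, 0 and 0.218 CPM in control libraries. Almost no read of it was seen without heat: 598 counts in recovery libraries stood against 1 count in control libraries, a ratio of 590.5 with a counting interval of 105.6 to 23363, which covers counting error only. ATHSP22.0, a small heat shock protein of the endoplasmic reticulum (chr4:6370338-6371372, plus strand), had 218, 246 and 182 CPM in recovery libraries, against 0, 0 and 1.75 CPM in control libraries. It rose by 8.61 ± 0.49 (adjusted p = 9.97e-10), with a single control library showing any reads.

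The list was not uniform. The class members AT1G53540, HSP17.6II, HSP17.4 and AT2G29500 rose by 7.197 ± 0.48, 7.03 ± 0.33, 6.88 ± 0.29 and 5.59 ± 0.20 on the log2 scale. HSP17.6A followed with 29.6, 36.3 and 25.3 CPM in recovery libraries, against 1.03, 1.57 and 1.75 CPM in control libraries (4.37 ± 0.31), and the mitochondrial HSP23.6-MITO with 3.92 ± 0.41 (adjusted p = 1.1e-08). At the lower end stood AT1G54050, called at 1.03 ± 0.24 (adjusted p = 0.0094) but not without recovery replicate 2 (0.0697) or control replicate 2 (0.133). AT1G59860 had 0.608, 1.63 and 0.817 CPM in recovery libraries, against 0.618, 0.522 and 0.437 CPM in control libraries. These groups overlapped and it was not called (0.95 ± 0.56, adjusted p = 0.542), although right after the heat it was up by 11.36. Reads of AT3G07365, a non-coding gene that overlaps HSP17.4 and had a log2 fold change of 7.36 ± 0.32, cannot be told apart from those of HSP17.4. With the ZT60 library that went against its label kept, 8 of the 13 were called, and HSP23.6-MITO, AT1G07400, AT1G54050, AT5G37670 and AT1G52560 were not (adjusted p = 0.0545 to 0.117).

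**Figure D2:**
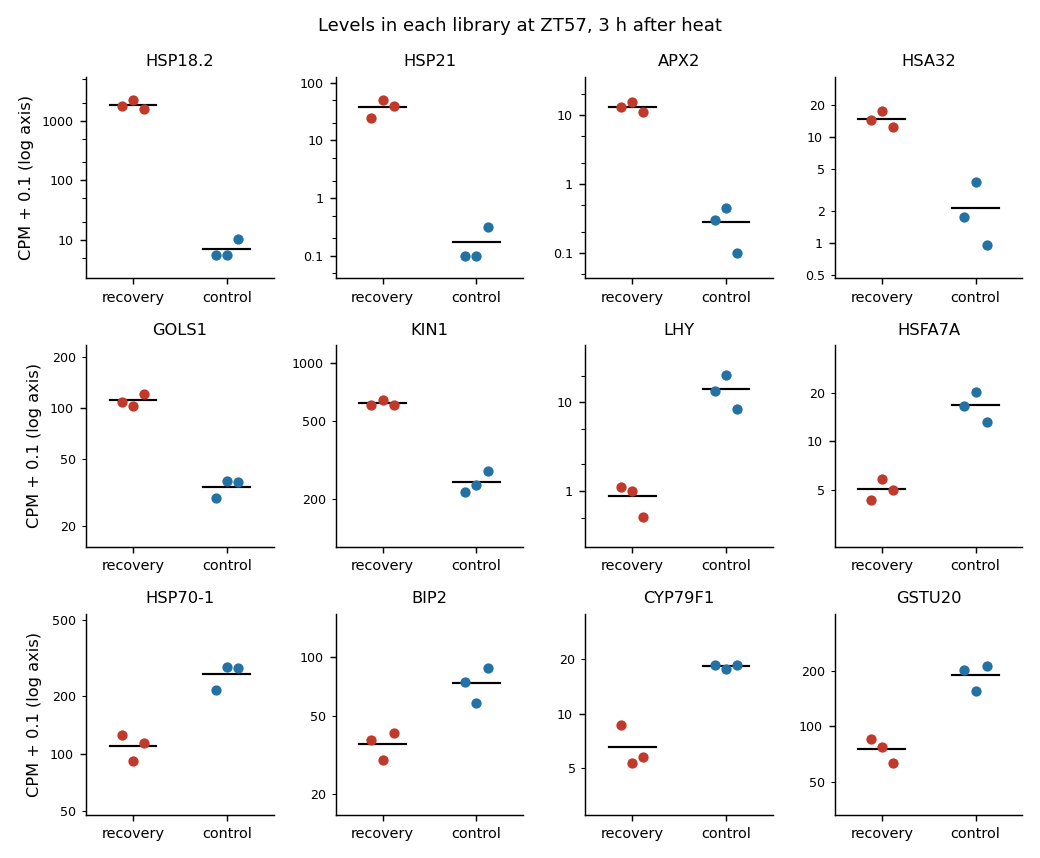
Level of 12 genes in each library at ZT57, as CPM + 0.1 on a log axis, with recovery libraries (red) left of control libraries (blue) in each panel and bars at the group means. HSP18.2 sits at 1550.2 to 2209 CPM in recovery libraries and 5.36 to 10.3 CPM in control libraries, while HSFA7A, HSP70-1, BIP2, CYP79F1, GSTU20 and LHY sit lower in every recovery library than in any control.

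Compared with earlier times, the effects of the small heat shock proteins were smaller, by very different amounts. The list's median log2 fold change was 10.56 at 0 h, 7.46 at 1 h, 3.12 at 3 h and 2.74 at 6 h. The effect at 3 h was smaller than at 0 h in 16 of 19 members and smaller than at 1 h in 10, by the test of the difference, which over all genes called 16.7% and 2.4% lower. HSP18.2 had a difference of −2.51 from 0 h (adjusted p = 1.1e-05), while its difference from 1 h was −0.74 (adjusted p = 0.32). HSP21 had differences of −3.44 from 0 h (adjusted p = 0.36) and −1.30 from 1 h (adjusted p = 0.87), neither called, with the control level close to 0 counts. HSP23.6-MITO and HSP17.6A differed by −8.85 and −8.27 from 0 h and by −4.56 and −4.33 from 1 h, and were among the 4 genes with the lowest differences between 1 h and 3 h.

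**Figure D3:**
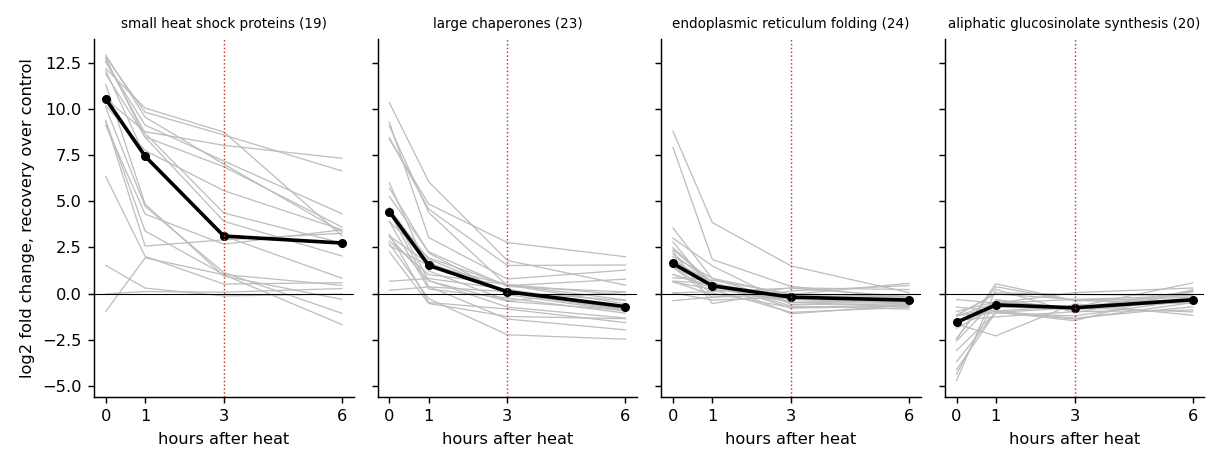
Log2 fold change of recovery over control (vertical axis) at 0, 1, 3 and 6 h after heat (horizontal axis) for 4 gene lists, with 1 grey line per gene, the list's median in black and a dotted line at 3 h. The median of the small heat shock proteins is 10.56, 7.46, 3.12 and 2.74 at the 4 times, that of the large chaperones is 4.45, 1.52, 0.10 and −0.71, and that of aliphatic glucosinolate synthesis is −1.57, −0.62, −0.77 and −0.34.

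Some genes with a known part in heat memory also stayed above control. Of 11 memory genes tested, 6 rose and none fell, with a median of 1.37; 3 of the 6, HSP21, ATHSP22.0 and HSP18.2, are also in the list of small heat shock proteins. HSA32, which is needed to keep acquired thermotolerance, had 14.4, 17.5 and 12.5 CPM in recovery libraries, against 1.65, 3.65 and 0.873 CPM in control libraries. The groups lay well apart, and HSA32 rose by 2.77 ± 0.29 (adjusted p = 2.11e-08), against 8.38 at 0 h and 4.86 at 1 h. APX2, a cytosolic ascorbate peroxidase that removes hydrogen peroxide, had 64, 84 and 53 counts in recovery libraries, against 1, 2 and 0 counts in control libraries. That is a ratio of 66.2 with a counting interval of 22.3 to 323.5, and APX2 was the single gene called of 15 for reactive oxygen scavenging. HSFA2, the heat shock factor that sustains memory genes, had 0.811, 0.903 and 0.408 CPM in recovery libraries, against 0.206, 0.174 and 0.437 CPM in control libraries. These ranges overlapped, HSFA2 was not called (1.37 ± 0.98, adjusted p = 0.641), and its difference from the effect at 0 h was −9.60 (adjusted p = 0.0003).

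The large chaperones were split by direction. Of 23 tested, 22 were up right after the heat, but at 3 h only 3 rose, 5 fell and the median was 0.10. The 3 that rose are strongly heat-inducible genes. HSP90.1, an HSP90 of the cytosol, had 8.51, 11.2 and 8.57 CPM in recovery libraries, against 3.3, 1.57 and 3.49 CPM in control libraries (1.79 ± 0.28, adjusted p = 3.45e-05). Right after the heat it had averaged 5997 CPM in recovery libraries and 4.51 CPM in controls, so little of that response was left. HSP70 (AT3G12580) had 26.1, 27.8 and 27.4 CPM in recovery libraries, against 12.2, 6.96 and 9.39 CPM in control libraries (1.52 ± 0.19, adjusted p = 5.4e-07). HSP101, the disaggregase, had 7.09, 8.49 and 7.35 CPM in recovery libraries, against 3.71, 3.83 and 5.89 CPM in control libraries. Its groups did not overlap, but it was not called (0.79 ± 0.26, adjusted p = 0.125).

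The 5 that fell are HSP70 and HSP90 genes of the cytosol. HSP70-1, a constitutive HSP70 of the cytosol, had 125, 91.4 and 113 CPM in recovery libraries, against 215, 283 and 282 CPM in control libraries. All recovery libraries lay below all controls, and HSP70-1 fell by 1.24 on the log2 scale (SE 0.14, adjusted p = 6.74e-08), whereas it was up by 2.26 at 0 h. AT3G09440, another HSP70, had 14.8, 16.3 and 14.698 CPM in recovery libraries, against 39.0, 37.4 and 43.7 CPM in control libraries (−1.39 ± 0.15, adjusted p = 1.1e-08). It was up by 4.45 at 0 h and by 0.37 at 1 h, so it passed from above to below control. The HSP90 genes HSP81-3 and HSP90.2 fell, at −0.84 and −0.74, and so did HSP70-2, at −2.24. These HSP70 and HSP90 genes are near-identical copies, so how reads were shared out among them is uncertain. HSP70-2 was not called without recovery replicate 2 or 3 or without control replicate 1 or 3 (adjusted p = 0.0517 to 0.139), and HSP90.2 was not called without recovery replicate 2 or control replicate 1 or 3 (adjusted p = 0.0508 to 0.127). Of the 5, only HSP70-1 was called with the ZT60 library that went against its label kept; AT3G09440, HSP81-3, HSP90.2 and HSP70-2 were not (adjusted p = 0.0993 to 0.33).

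Cochaperones and heat shock factors showed both directions too. Of 12 cochaperones tested, 2 rose and 2 fell. ROF2, an FKBP-type peptidyl-prolyl isomerase that binds HSP90, had 29.2, 34.3 and 31.0 CPM in recovery libraries, against 3.5, 4.0 and 5.68 CPM in control libraries (2.85 ± 0.19, adjusted p = 3.77e-14). HOP3, which links HSP70 to HSP90, rose by 2.28 ± 0.24. In contrast, ROF1, a close relative of ROF2, had 31.0, 26.4 and 30.009 CPM in recovery libraries, against 42.7, 41.1 and 52.6 CPM in control libraries (−0.64 ± 0.14, adjusted p = 0.00737) and the HSP40 J3 was at −0.52; both fell. ROF1 was not called without recovery replicate 2 (adjusted p = 0.0862) or control replicate 3 (adjusted p = 0.0732), and J3 was not called without recovery replicate 1 (0.0599), without control replicate 1 (0.0588) or with the ZT60 library that went against its label kept (0.0552), a fit in which ROF1 was not called either (0.117).

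Of 21 heat shock factors tested, 2 rose and 1 fell. HSFB2A, of the class B factors that repress heat shock genes, had 20.1, 16.3 and 19.4 CPM in recovery libraries, against 4.33, 8.7 and 5.02 CPM in control libraries (1.59 ± 0.22, adjusted p = 3.1e-06). HSFB1, of the same class, had 159.7, 155 and 134 CPM in recovery libraries, against 92.8, 101 and 90.16 CPM in control libraries (0.66 ± 0.13, adjusted p = 0.00192). HSFA7A, a class A factor, had 4.26, 5.78 and 4.9 CPM in recovery libraries, against 16.5, 20.01 and 13.1 CPM in control libraries. It fell by 1.73 on the log2 scale (SE 0.27, adjusted p = 0.000218), although right after the heat it averaged 260.5 CPM in recovery libraries and 12.0 CPM in controls. Among the coactivators and targets of the heat response, MBF1C rose by 1.27 ± 0.19 (adjusted p = 3.93e-05), with reads that cannot be told apart from those of the overlapping AT3G04685. DREB2A, a transcription factor of heat and drought, was at 13.0, 13.9 and 16.7 CPM in recovery libraries, against 12.0, 8.35 and 5.68 CPM in control libraries, and just missed the threshold (0.74 ± 0.21, adjusted p = 0.0545). It was called by DESeq2 (adjusted p = 0.0374), with a weaker filter on low counts (0.0369) and without control replicate 1 (0.0102).

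Several folding genes of the endoplasmic reticulum lay below control. Of 24 tested, 5 fell and none rose, with a median of −0.20, whereas 21 had been up at 0 h (median 1.63) and 12 at 1 h (median 0.42). ERDJ3B, an HSP40 of the endoplasmic reticulum, had 35.5, 31.2 and 32.9 CPM in recovery libraries, against 80.0, 61.4 and 71.8 CPM in control libraries (−1.10 ± 0.13, adjusted p = 8.82e-08). BIP2, the HSP70 of this compartment, had 37.5, 29.8 and 40.8 CPM in recovery libraries, against 74.0, 58.5 and 87.3 CPM in control libraries (−1.02 ± 0.18, adjusted p = 0.000434). In both genes every recovery library was below every control. The lectin chaperones CNX1, CRT1b and CRT1, which fold glycoproteins, fell too, at −0.79, −0.76 and −0.69. Of the others, BIP1, a close copy of BIP2, was at −0.48 and HSP90.7 at −0.49, and neither was called. BIP2, CNX1 and CRT1 were not called with the ZT60 library that went against its label kept (adjusted p = 0.144 to 0.247).

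**Figure D4:**
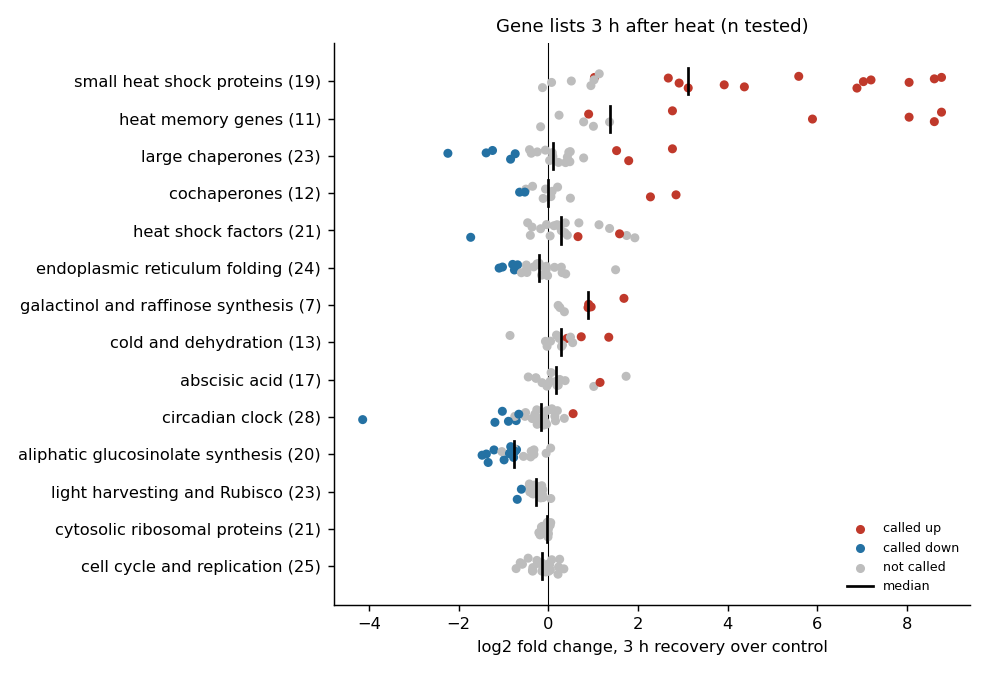
Log2 fold change of 3 h recovery over control (horizontal axis) for the members of 14 gene lists (number tested in brackets); each point is a gene, red where it rose, blue where it fell and grey where it was not called, and black bars are medians. Small heat shock proteins reach from −0.13 to 8.77 with 13 red points, while 11 of 20 points for aliphatic glucosinolate synthesis and 5 of 24 for folding in the endoplasmic reticulum are blue.

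Aliphatic glucosinolates are sulphur-rich defence compounds that Arabidopsis makes from methionine by chain elongation followed by building of the core structure. Of 20 genes of this pathway tested, 11 fell and none rose, with a median of −0.77, against −0.01 over all genes. All 20 had been down at 0 h (median −1.57) and 13 at 1 h. In chain elongation, BCAT4, which takes the amino group off methionine, had 53.1, 35.4 and 41.4 CPM in recovery libraries, against 111, 82.1 and 108 CPM in control libraries (−1.21 ± 0.16, adjusted p = 1.67e-06). IPMI1, a subunit of the isomerase of this cycle, had 9.93, 5.96 and 4.49 CPM in recovery libraries, against 18.1, 15.3 and 19.9 CPM in control libraries (−1.38 ± 0.26, adjusted p = 0.00109). MAM1, the condensing enzyme, fell by 0.77 (adjusted p = 0.000524). In every one of these no recovery library reached a control library.

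In the building of the core, CYP79F1, which turns elongated methionine into an aldoxime, had 8.51, 5.24 and 5.72 CPM in recovery libraries, against 18.3, 17.401 and 18.3 CPM in control libraries (−1.48 ± 0.23, adjusted p = 3.85e-05). GSTU20, a glutathione transferase, had 84.5, 76.6 and 63.1 CPM in recovery libraries, against 201, 156 and 213 CPM in control libraries (−1.34 ± 0.16, adjusted p = 2.87e-07). Both were wholly below control. CYP79F1 and IPMI1 had been lower still right after the heat, at −3.70 and −4.14, and the difference of the effects was 2.23 (adjusted p = 1.3e-05) for CYP79F1 and 2.76 for IPMI1, while GSTU20 was at −0.74, −0.95, −1.34 and −0.72 at 0, 1, 3 and 6 h. Of the regulators, MYB29 had 9.53, 8.67 and 8.78 CPM in recovery libraries, against 16.5, 14.8 and 13.8 CPM in control libraries (−0.74 ± 0.17, adjusted p = 0.011), while MYB28 was at 0.05 and not called. Of the 11 calls in the pathway, 7 remained without recovery replicate 2 or 3 or control replicate 1 and with the ZT60 library that went against its label kept. MYB29 was not called without recovery replicate 2 or 3 or control replicate 1 (adjusted p = 0.0522 to 0.0773).

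Galactinol and raffinose are sugars that protect cells under heat, cold and drought. Of 7 genes for their synthesis tested, 4 rose and none fell (median 0.89), out of 9 in the list. GOLS1, a galactinol synthase, had 108, 103 and 121 CPM in recovery libraries, against 29.3, 36.9 and 36.5 CPM in control libraries (1.69 ± 0.13, adjusted p = 4.78e-12). MIPS2, which makes the inositol phosphate that galactinol is built from, had 36.9, 37.2 and 36.7 CPM in recovery libraries, against 19.8, 20.5 and 19.0 CPM in control libraries (0.90 ± 0.17, adjusted p = 0.000669). Both groups were tight and far apart in each gene. GOLS2 and GOLS4 rose by 0.96 ± 0.22 and 0.89 ± 0.22, and GOLS4 was not called at 0, 1 or 6 h. GOLS2 was not called without recovery replicate 2 (adjusted p = 0.0709) or control replicate 3 (adjusted p = 0.0741), and GOLS4 was not called without recovery replicate 1 (0.0903) or control replicate 3 (0.122). With the ZT60 library that went against its label kept, none of the 4 was called (adjusted p = 0.103 to 0.325).

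Of 13 genes of cold and dehydration, 3 rose and none fell. KIN1, a small hydrophilic cold-induced protein, had 604, 647 and 604 CPM in recovery libraries, against 216, 234 and 278 CPM in control libraries (1.35 ± 0.15, adjusted p = 9.42e-08). The dehydrin COR47 had 894, 971 and 928 CPM in recovery libraries, against 560.1, 568 and 550.3 CPM in control libraries (0.73 ± 0.13, adjusted p = 0.000178). The related ERD10 was higher by 0.42 ± 0.11 (adjusted p = 0.0425), a call that was lost whichever single library of the 6 was left out (adjusted p = 0.0766 to 0.14). RD29A and COR15A were at 0.54 and 0.24 and not called. Among 17 genes of abscisic acid, the drought hormone, only the phosphatase HAI2 rose, with 8.71, 5.78 and 7.14 CPM in recovery libraries, against 2.47, 4.0 and 3.06 CPM in control libraries (1.15 ± 0.31, adjusted p = 0.0388). HAI2 was not called without recovery replicate 1 or 3 or control replicate 1 or 3 (adjusted p = 0.102 to 0.19). None of KIN1, COR47, ERD10 and HAI2 was called with the ZT60 library that went against its label kept (adjusted p = 0.0587 to 0.352).

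The circadian clock of plants is built on loops in which LHY and CCA1, a pair of MYB repressors of dawn, and the PRR and TOC1 repressors of day and evening hold each other down. Of 28 clock genes tested, 6 fell, 1 rose and the median was −0.16. LHY (chr1:33365-37871, minus strand) had 1.01, 0.903 and 0.408 CPM in recovery libraries, against 13.2, 20.2 and 8.3 CPM in control libraries, or 5, 5 and 2 counts against 64, 116 and 38 counts. Among called genes with a mean of at least 2 CPM and no overlap between groups it had the lowest log2 fold change, −4.14 ± 0.35 (adjusted p = 6.13e-11). Its effect was below that at 0 h (difference −3.31, adjusted p = 8.6e-08) and that at 1 h (difference −1.84, adjusted p = 0.019), and at the 4 times it stood at −0.83, −2.30, −4.14 and −2.08. CCA1 had 16.8, 9.03 and 11.2 CPM in recovery libraries, against 16.9, 24.2 and 19.2 CPM in control libraries. Its groups nearly met, and its call (−0.72 ± 0.20, adjusted p = 0.0425) was lost without recovery replicate 2 or 3 or control replicate 2 or 3 (adjusted p = 0.0709 to 0.337) and with the ZT60 library that went against its label kept (0.147). Unlike LHY, CCA1 was up by 2.65 at 0 h and by 1.15 at 1 h.

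RVE8, an activator of evening genes, had 5.88, 5.24 and 4.9 CPM in recovery libraries, against 10.101, 13.9 and 12.4 CPM in control libraries (−1.19 ± 0.21, adjusted p = 0.000213). Its coactivator LNK2 had 72.1, 54.7 and 55.1 CPM in recovery libraries, against 127, 157 and 84.9 CPM in control libraries (−1.03 ± 0.18, adjusted p = 0.000563). LNK3 and LNK4 were called at −0.89 and −0.66, and LNK1 was at −0.22 and not called. LNK3 was not called without recovery replicate 1 (adjusted p = 0.0619) or control replicate 1 (0.167), nor LNK4 without recovery replicate 1 or 2 or control replicate 1 or 2 (0.0866 to 0.29) or with the ZT60 library that went against its label kept (0.0733). GRP8, an RNA-binding protein of a loop driven by the clock, had 416, 357 and 405 CPM in recovery libraries, against 256, 255 and 292 CPM in control libraries (0.55 ± 0.12, adjusted p = 0.00375). It was the single clock gene that rose at 3 h, after −1.74 at 0 h. The repressor of evening TOC1 was at −0.08 ± 0.14, the day-phase repressor PRR7 at −0.26 ± 0.15 and the evening gene GI at −0.30 ± 0.20, none of them called (adjusted p = 0.89, 0.528 and 0.592). PIF4, a growth regulator, was at −0.30 ± 0.14 (adjusted p = 0.365).

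The 250 bases before the annotated starts of the 2 highest genes and the lowest gene named by the fixed rule are shown to let the extremes of the comparison be seen beside each other, from the RefSeq assembly TAIR10.1, 5′ to 3′ on the strand of the gene, with heat shock elements of 2 units (GAANNTTC) and the G-box CACGTG in capitals. The window of HSP21 is chr4:13819972-13820221 on the minus strand and that of ATHSP22.0 is chr4:6370088-6370337 on the plus strand. The window of LHY is chr1:37872-38121 on the minus strand.
HSP21: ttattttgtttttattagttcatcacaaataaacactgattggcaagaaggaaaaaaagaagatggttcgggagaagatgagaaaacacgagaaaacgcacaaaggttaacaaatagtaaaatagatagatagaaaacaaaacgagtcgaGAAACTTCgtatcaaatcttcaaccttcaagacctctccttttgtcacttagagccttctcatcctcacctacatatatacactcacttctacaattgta
ATHSP22.0: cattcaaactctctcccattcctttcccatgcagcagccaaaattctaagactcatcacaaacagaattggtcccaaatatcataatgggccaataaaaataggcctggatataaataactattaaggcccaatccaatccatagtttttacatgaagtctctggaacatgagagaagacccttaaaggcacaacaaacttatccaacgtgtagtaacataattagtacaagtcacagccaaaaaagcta
LHY: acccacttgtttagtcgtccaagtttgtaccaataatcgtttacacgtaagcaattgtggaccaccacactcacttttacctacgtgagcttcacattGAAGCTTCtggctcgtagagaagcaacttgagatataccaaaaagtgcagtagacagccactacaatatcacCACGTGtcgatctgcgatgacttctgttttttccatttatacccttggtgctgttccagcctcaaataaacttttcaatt
Counted from the start, HSP21 held 1 GAANNTTC at −100 to −93, and LHY held 1 at −152 to −145 and a G-box at −80 to −75. ATHSP22.0 held none of the motifs searched.

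Over all genes tested, on both strands, GAANNTTC stood in 1951 of 20836 such windows (9.36%), in 25 of 197 genes that rose (12.7%), in 16 of 220 that fell (7.27%) and in 4 of the 13 small heat shock proteins that rose (30.8%). The longer element of 3 units, which is GAANNTTC followed after 2 further bases by GAA, stood in 0.442% of all windows, in 5 of 197 genes that rose (2.54%) and in 2 of the 13 small heat shock proteins (15.38%). The other order of 2 units, TTCNNGAA, stood in 7.69% of all windows, in 9.64% of genes that rose, in 7.73% of those that fell and in 4 of the 13 small heat shock proteins. The G-box CACGTG stood in 7.21% of all windows, in 6.6% of genes that rose and in 10.9% of genes that fell. The evening element AAATATCT, a clock motif, stood in 4.75% of all windows, in 7.61% of genes that rose and in 3.18% of those that fell. The endoplasmic reticulum stress element stood in 0.389% of all windows, in 0 of 197 genes that rose and in 0 of 220 that fell. These are counts of letters in windows and not of bound sites.

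Apart from the heat and clock genes, the lowest values came from genes with varied roles. AT4G12170, a thioredoxin-like gene, had 0.405, 0.722 and 0.408 CPM in recovery libraries, against 7.01, 5.74 and 6.55 CPM in control libraries (−3.57 ± 0.46, adjusted p = 1.07e-06). GASA5, a member of the GAST1 family of small peptides, had 1.82, 1.08 and 1.02 CPM in recovery libraries, against 7.22, 6.79 and 6.77 CPM in control libraries (−2.39 ± 0.33, adjusted p = 3.27e-06). GASA5 was down at all 4 times, while AT4G12170 was at −0.996, −1.28 and 1.11 at 0, 1 and 6 h, the last not called. HMT3, a homocysteine methyltransferase that makes methionine, had 2.03, 2.17 and 1.43 CPM in recovery libraries, against 8.04, 6.79 and 10.9 CPM in control libraries (−2.16 ± 0.34, adjusted p = 5.75e-05). The cytochrome P450 CYP82C4 and the defensin PDF1.2b were at −2.93 ± 0.63 and −2.33 ± 0.64, the non-coding AT2G04205 at −2.20 ± 0.49, AT4G35720 at −2.01 ± 0.32 and AT4G01390 at −2.004 ± 0.42. CYP82C4 was not called without recovery replicate 2 or 3 or control replicate 1 (adjusted p = 0.0747 to 0.104), PDF1.2b in 5 of the 6 fits that left out 1 library, AT2G04205 without recovery replicate 2 (0.0791) or 3 (0.0579), and AT4G01390 without control replicate 1 (0.0774). CYP82C4, PDF1.2b and AT4G01390 were also not called with the ZT60 library that went against its label kept (0.125 to 0.3).

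Of 23 light harvesting and Rubisco genes, 2 fell and none rose, with a median of −0.27. In edgeR's quasi-likelihood test 10 were at an unadjusted p under 0.05, all of them lower, and DESeq2 called 4 lower and 0 higher. Over all 20984 genes tested, 2584 were at an unadjusted p under 0.05 in the edgeR test. LHCB2.3, a light harvesting protein of photosystem II, had 313, 313 and 384 CPM in recovery libraries, against 577, 538 and 415 CPM in control libraries (−0.60 ± 0.14, adjusted p = 0.0119). LHCB1.4 had 1101, 1105 and 1403 CPM in recovery libraries, against 2077, 2422 and 1333 CPM in control libraries (−0.69 ± 0.17, adjusted p = 0.0169), and control replicate 3 lay below recovery replicate 3. Both calls were lost without recovery replicate 1 or 2 or control replicate 1 or 2 and with the ZT60 library that went against its label kept (adjusted p = 0.053 to 0.182). Of single calls in other lists, VSP1, a vegetative storage protein induced by jasmonate, had 20.3, 21.9 and 22.3 CPM in recovery libraries, against 39.0, 53.2 and 38.4 CPM in control libraries (−1.03 ± 0.15, adjusted p = 1.21e-05). SR30, a splicing factor, had 119.8, 107 and 90.64 CPM in recovery libraries, against 57.5, 67.0 and 54.1 CPM in control libraries (0.83 ± 0.13, adjusted p = 5.33e-05). It was the single one called of 20 splicing regulators, of which 12 had been up at 0 h.

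Several lists that moved right after the heat had no member called at 3 h in edgeR's quasi-likelihood test. In that test 2584 of all 20984 genes were at an unadjusted p under 0.05, the background for the counts below. Cell cycle and replication genes, 24 of 25 down at 0 h and 14 at 1 h, had 0 called at 3 h, with 4 at an unadjusted p under 0.05, 0 by DESeq2 and a median of −0.14. Ribosome biogenesis genes had 0 of 20 called (1 at an unadjusted p under 0.05, 0 by DESeq2), after 12 were up at 1 h. Cytosolic ribosomal proteins had 0 of 21 called, 0 at an unadjusted p under 0.05 and 0 by DESeq2. Flavonoid synthesis had 0 of 11 called (1 at an unadjusted p under 0.05, 0 by DESeq2), after 7 were down at 0 h. The lists for the PIF regulators (14 genes), starch (15), autophagy (15) and photoprotection (4) also had 0 called and 0 by DESeq2, with 2, 4, 2 and 0 members at an unadjusted p under 0.05. In all 29 lists, which held 434 tested genes, 33 genes rose and 36 fell.

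Markers of cell types and tissues were looked at beside these lists. Summed, the 11 root markers took 0.0983 to 0.129% of the counts in recovery libraries and 0.137 to 0.155% in control libraries. Of the 10 root markers tested, 1 was called higher and 1 called lower. The sums in this paragraph are shares of all counts, without the TMM adjustment, and are not on the scale of the CPM of single genes. Whether the groups overlap in a sum may therefore depend on the scaling, which was not tested. PYK10, a beta-glucosidase of root endoplasmic reticulum bodies, had 779, 923 and 1095 CPM in recovery libraries, against 1408, 1539.7 and 1325 CPM in control libraries (−0.61 ± 0.13, adjusted p = 0.00343), a call lost without recovery replicate 1 (adjusted p = 0.0534). PYK10 alone made up most of the root sum, and the median log2 fold change of the 10 root markers tested was −0.03. PHT1-1, a phosphate transporter, had 29.2, 38.5 and 38.4 CPM in recovery libraries, against 20.4, 15.66 and 22.7 CPM in control libraries (0.86 ± 0.17, adjusted p = 0.00179). The 5 seed storage genes, of which 3 were tested, took 0.00115 to 0.00195% of the counts in recovery libraries and 0.00264 to 0.00405% in control libraries. The cruciferins CRU1 and CRU3 were called at −1.44 ± 0.27 and −1.49 ± 0.32, while SESA1 was at 0 in all 6 libraries. CRU3 was not called without recovery replicate 1 (0.0514) or 2 (0.0826) or control replicate 1 (0.0619). Light harvesting and Rubisco genes took 4.698 to 5.62% of the counts in recovery libraries and 5.09 to 6.26% in control libraries. Guard cell, vascular and epidermis markers (4 each) had 0 called and 0 by DESeq2. In edgeR's quasi-likelihood test 0, 4 and 1 were at an unadjusted p under 0.05, all of them lower, against 2584 of 20984 genes tested. The median log2 fold changes of these lists were 0.004, −0.41 and −0.21. The part of these differences in the other results was not tested.

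The genes called at 3 h were followed back to the other times, which have libraries of their own. Of the 197 genes that rose at 3 h, 131 were up and 23 were down at 0 h, 129 were up and 4 down at 1 h, and 90 were up and 12 down at 6 h. Of the 222 that fell, 48 were up and 120 down at 0 h, 18 up and 148 down at 1 h, and 18 up and 76 down at 6 h. Over all genes tested, 23.49% were up and 23.64% down at 0 h. The shares were 10.51% and 10.59% at 1 h, and 4.98% and 7.48% at 6 h. Being up at 0 h was thus about as frequent in genes that fell (21.62%) as over all genes. Being down at 0 h was less frequent in genes that rose (11.68%) than over all genes. Seen from the heat itself, of the 4930 genes up at 0 h 2.66% were still up at 3 h and 0.974% were down. Of the 4961 down at 0 h 2.42% were still down and 0.464% were up. Over all genes tested, 0.939% were up and 1.06% down at 3 h. The same way at all 4 times were 58 genes that were up and 29 that were down. The effect at 3 h differed from that at 0 h in 6745 genes (32.1%), from that at 1 h in 903 (4.3%) and from that at 6 h in 895 (4.27%). Against 1 h, 400 effects were higher (1.91%) and 503 lower (2.4%), and against 6 h, 510 were higher (2.43%) and 385 lower (1.83%).

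**Figure D5:**
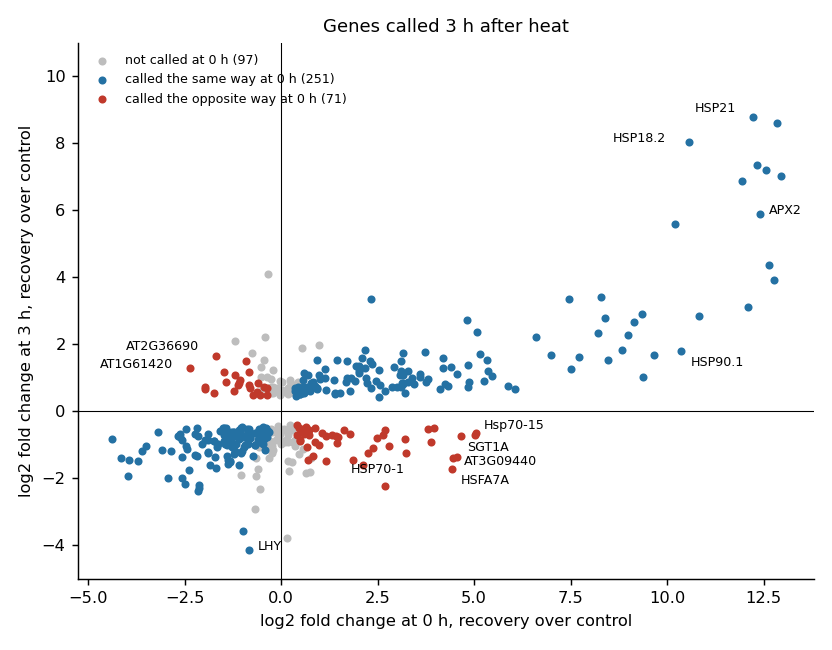
Log2 fold change at 0 h (horizontal axis) against that at 3 h (vertical axis) for the 419 genes called at 3 h; blue points were called the same way at 0 h, red points the opposite way and grey points were not called at 0 h. The red points number 71, with HSFA7A, SGT1A and AT3G09440 up at 0 h and down at 3 h, and AT1G61420 and AT2G36690 the other way round.

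In 71 genes the direction turned between 0 h and 3 h. The difference itself was called in all, which choosing genes by opposite calls made all but certain. Of the 71, 48 were up and then down, and 23 were down and then up. Neither kind was more frequent than over all genes. Of genes up at 0 h, 0.974% were down at 3 h, against 1.06% of all genes tested. Of genes down at 0 h, 0.464% were up at 3 h, against 0.939% of all genes tested. The largest differences of the first kind were those of HSFA7A, at −6.16, and SGT1A, a homolog of the HSP90 partner SGT1, at −5.90. SGT1A had 9.73, 7.22 and 7.96 CPM in recovery libraries, against 22.7, 18.1 and 22.9 CPM in control libraries, and fell by 1.35 (SE 0.17, adjusted p = 9.58e-07) after being up by 4.55. AT3G09440 and Hsp70-15, both of the HSP70 family, had differences of −5.83 and −5.72, but Hsp70-15 was not called at 3 h without recovery replicate 2 or 3 or control replicate 2 or 3 (adjusted p = 0.057 to 0.228). Of the second kind, SULTR1;2, a sulphate transporter of roots, had 75.8, 90.65 and 105 CPM in recovery libraries, against 64.7, 44.7 and 55.01 CPM in control libraries. It was at 0.73 ± 0.17 at 3 h and −1.98 at 0 h, a difference of 2.71 (adjusted p = 4.2e-10), and its call at 3 h was lost without recovery replicate 3 (0.1) or control replicate 2 (0.109). AT2G36690, an oxygenase, AT1G61420, a lectin receptor kinase, and the small nucleolar RNA SNOR111 had differences of 3.34, 3.66 and 2.64. Their calls at 3 h were lost without recovery replicate 2 for AT2G36690 (0.0626), without recovery replicate 2 (0.149) or control replicate 2 (0.142) for SNOR111, and without any 1 of the 6 libraries for AT1G61420 (0.0763 to 0.2). Hsp70-15 and AT1G61420 were also not called with the ZT60 library that went against its label kept (0.0524 and 0.0754).

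In 40 of the called genes the effect at 3 h differed from those at both 0 h and 1 h in the direction of the 3 h call, 11 upwards and 29 downwards. Among the 29 were LHY and CCA1, the HSP70 and HSP90 genes HSP70-1, AT3G09440, Hsp70-15 and HSP90.2, the cochaperones ROF1 and J3, and all 5 called genes of the list for folding in the endoplasmic reticulum. Such differences include the change of the first hour: AT3G09440 was at 4.45, 0.37 and −1.39 at 0, 1 and 3 h. Among the 11 were PHT1-1 and SULTR1;2. The effect of PHT1-1 at 3 h lay 2.301 above that at 0 h (adjusted p = 6.5e-09) and 1.98 above that at 1 h (adjusted p = 1.9e-06).

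Differences of the effects picked out further genes. Between 0 h and 3 h the largest returns from below were those of CYCA1-1, a mitotic cyclin, which was at −8.17 at 0 h and −0.58 at 3 h, a difference of 7.59 ± 1.01, and of AT3G51230 (6.90 ± 1.05), AT3G03130 (6.46 ± 0.82) and AT3G14740 (5.65 ± 0.92). The largest declines were those of AT1G59860 (−10.41), HSFA2 (−9.60), AT5G03975 (−9.22) and AT1G07400 (−8.98). Between 1 h and 3 h, AT1G53635 (2.85 ± 0.77), XTH21 (2.72 ± 0.64), BS1 (2.68 ± 0.41) and AT5G36130 (2.52 ± 0.55) had the largest gains, and beside HSP23.6-MITO, AT1G07400 and HSP17.6A, HSP90.1 had one of the 4 lowest differences, at −4.28. Between 3 h and 6 h, CYP82C2, AT5G38910, AT1G26390 and GLP9 were higher in effect at 3 h by 12.23, 9.71, 6.56 and 5.92, values that rest on the 2 remaining ZT60 controls, and AT4G12170, AT4G37700, MRN1 and AT1G33100 were lower.

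Ribosome-bound mRNA of the same hour was set beside total mRNA in a joint fit of both kinds of library over 21749 genes. The TRAP libraries gave 747 genes higher (3.43%) and 1549 lower (7.12%), and total mRNA 128 higher (0.589%) and 117 lower (0.538%), 1.13% in all. The effect differed between the kinds of RNA in 0 genes by edgeR's quasi-likelihood test, with 2086 genes at an unadjusted p under 0.05 and 0 genes by DESeq2. Of the 197 genes that rose in the fit of total mRNA alone, the joint fit called 115 higher in TRAP mRNA and 122 in total mRNA; of the 222 that fell, it called 163 lower in TRAP mRNA and 111 in total mRNA, with none called the other way. All counts of members that follow are from the joint fit. Small heat shock proteins had 14 members higher in TRAP mRNA (median 3.08) and 13 in total mRNA (median 3.13). HSP18.2 and ATHSP22.0 had log2 fold changes of 8.48 and 8.89 in TRAP mRNA, LHY −3.78 and HSFA7A −2.39. Aliphatic glucosinolate synthesis had 16 members lower in TRAP mRNA (median −0.89) and 7 in total mRNA (median −0.77), and folding in the endoplasmic reticulum had 2 members lower in each kind of RNA.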

How the data were processed

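The deposited table held the authors' raw counts of reads per gene, for 38194 gene identifiers in the recovery experiment. Per the submitters' processing notes, cutadapt, FastQC and HISAT2 2.2.0 were used with TAIR10. How reads were counted, and on which strand, is not given in the sources used here. Values of overlapping genes and near-identical copies are therefore uncertain; HSP101, HSA32, AT3G09440, DREB2A, BCAT4, GOLS1, GOLS4, MIPS2, LNK2, LHCB2.3, PYK10, AT4G12170 and AT1G61420 overlap other annotated genes. Per the labels' protocols, mRNA was taken with oligo(dT) beads and amplified by 12 cycles of PCR; no molecular identifiers are named. RefSeq TAIR10.1 named 37751 identifiers and gave the promoter sequences.

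Genes passing filterByExpr (minimum count 10, total 15) were fitted with edgeR 4.0.16 (limma 3.58.1, R 4.3.3): TMM scaling and the robust quasi-likelihood test with Benjamini-Hochberg adjustment, on 23 total mRNA libraries in 8 groups, which share one estimate of the spread. Contrasts were recovery over control at each time and differences between times. Genes with an adjusted p under 0.05 are called. DESeq2 1.42.0 was an alternative, beside RLE scaling, a weaker filter (minimum count 1, total 1), a replicate block, fits of the groups compared alone, and each library of ZT57 left out. For differences of effects, each replicate number was left out of every group instead. Fits without organelle genes and without ZT60 were chosen after seeing the data. The method was tested on simulated data. Nothing in the labels ties replicates to separate cultures: the p-values reflect sample-to-sample spread, which may be technical.

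Named genes are the 10 highest and 10 lowest called genes with a mean of at least 2 CPM and groups that do not overlap, up to 3 called genes of each list, 14 heat and clock genes, the 4 highest and 4 lowest of each difference, and the largest changes of direction. Further members of the lists and of gene families were named after their values were seen. The comparison, lists and named genes were chosen with earlier results of these data known. The counting intervals (95%) cover counting error only. The promoter sequence of 1 further gene is not reported here.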

Additional observations from a re-analysis of the deposited data

Results flagged for a closer look

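The library labelled ZT60 control replicate 2 had 0.415% of its counts in small heat shock proteins, against 0.0104 to 0.0193% in the other controls of the recovery experiment. Its log2 CPM values correlated with the 3 h recovery libraries at r = 0.972 to 0.974 and with the other ZT60 controls at r = 0.937 to 0.942. It held 11734 counts of HSP18.2, where the other ZT60 controls held 14 and 25, and 1 count of LHY.

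The heat effect in total mRNA differed between times by the test of the difference itself (edgeR's quasi-likelihood test with Benjamini-Hochberg adjustment). Between 3 h and 0 h it differed in 6745 genes, between 3 h and 1 h in 903 genes, and between 3 h and 6 h in 895 genes. A change of direction was no more frequent than over all genes. Of genes up at 0 h, 0.974% were down at 3 h, against 1.06% of all genes tested. Of genes down at 0 h, 0.464% were up at 3 h, against 0.939% of all genes tested. Among genes called in opposite directions at 3 h and 0 h, the difference of the log2 fold changes was −6.16 in HSFA7A, −5.90 in SGT1A, −5.83 in AT3G09440 and −5.72 in Hsp70-15. It was 3.66 in AT1G61420, 3.34 in AT2G36690, 2.71 in SULTR1;2 and 2.64 in SNOR111.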

How the results depend on the processing

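Keeping the ZT60 library that went against its label gave 103 genes higher and 126 lower at 3 h, against 197 and 222 without it. It gave 200 and 184 for the difference between 3 h and 6 h, and 39 called list genes in place of 69. Of genes up or down at 0 h, 68 and 71 then kept their direction at 3 h, and of those up or down at 1 h, 70 and 91. Leaving out 1 library of ZT57 gave 119 to 191 genes higher and 132 to 205 lower at 3 h. For the differences of effects, a replicate number was instead left out of every group, which removes more than 1 library. Without replicate 1 or 3 this left 1 control at ZT60. Counts against 6 h in those fits, 758 and 526 among them, therefore rest on 1 control and are not a measure of stability. The difference from 0 h then had 1678 to 2785 genes higher and 2076 to 3218 lower, that from 1 h 96 to 406 and 189 to 615, and that from 6 h 86 to 758 and 61 to 526; without replicate 1 in every group these were 227 and 300 from 1 h, and 319 and 196 from 6 h. With 1 library of ZT57 left out, genes that kept their 0 h direction numbered 90 to 120 (up) and 71 to 101 (down). Those that kept their 1 h direction then numbered 93 to 123 and 100 to 141, and called list genes 54 to 68. In all 6 fits that left out 1 library of ZT57, 90 genes were called higher and 89 lower at 3 h. At 3 h RLE scaling gave 206 and 210, DESeq2 205 and 213, and the weaker filter 207 and 210. The groups alone gave 184 and 219, no organelle genes 201 and 224, and no ZT60 libraries 207 and 218. Deviations of libraries from their group mean at ZT57 were compared between same-numbered recovery and control replicates, over 12446 genes. They correlated at −0.29, −0.18 and 0.088, so the numbers were not taken to pair samples. With the replicate as a block, 193 and 211 genes were called. The count of 0 genes whose effect differed between total and TRAP mRNA was 0 in every fit, with the smallest adjusted p between 0.072 and 1. Of 64 named genes called at 3 h, 60 were called by DESeq2, 41 with the doubtful library kept and 49 to 55 with 1 library left out. Where counts moved, the cause was not tested, but fits with libraries left out also hold fewer samples. Depth limits genes such as HSFA2 and AT1G59860, with few counts in each library.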

Other observations

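Other gene families were looked at after their values had been seen. Of 41 glutathione transferases tested, which detoxify reactive compounds, 10 fell and none rose, with a median log2 fold change of −0.47. The 10 calls became 5 without recovery replicate 2 or control replicate 1, 6 without recovery replicate 3, and 3 with the ZT60 library that went against its label kept. GSTU25 had 19.1, 12.3 and 13.9 CPM in recovery libraries, against 48.2, 36.2 and 38.2 CPM in control libraries (−1.44 ± 0.21, adjusted p = 3.95e-05). GSTF8 was up by 3.97 right after the heat and at −0.51 ± 0.12 at 3 h (adjusted p = 0.0129), a call lost without recovery replicate 1 or 2 or control replicate 1 (0.0562 to 0.0948). GSTU25 was not called with that ZT60 library kept (0.226). Of 28 beta-glucosidases, 4 fell, among them BGLU21 with 20.5, 16.3 and 18.4 CPM in recovery libraries, against 53.4, 47.5 and 53.9 CPM in control libraries (−1.49 ± 0.16, adjusted p = 1.45e-08). Of 18 expansins, which loosen cell walls, 3 fell and none rose. EXPA15 had 16.01, 11.9 and 14.698 CPM in recovery libraries, against 32.8, 38.8 and 38.6 CPM in control libraries (−1.37 ± 0.20), and EXPA4 was at −1.24 ± 0.14.

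Nutrient and sugar genes held calls in both directions. Both nitrate reductases were lower: NIA1 had 36.5, 47.5 and 50.8 CPM in recovery libraries, against 89.5, 85.6 and 70.7 CPM in control libraries (−0.87 ± 0.22, adjusted p = 0.0343), and NIA2 was at −0.59 ± 0.15 (adjusted p = 0.0188). At 1 h both had been higher, by 0.84 and 0.58. The nitrate transporter NRT2:1 had 12, 7 and 4 counts in recovery libraries, against 1, 0 and 0 counts in control libraries (adjusted p = 0.0248), and was not called at 0, 1 or 6 h. The sucrose exporters SWEET11 and SWEET12 rose by 0.94 ± 0.14 and 0.93 ± 0.16, of 8 SWEET genes tested. LTP4, a lipid transfer protein, had 15.2, 15.9 and 7.55 CPM in recovery libraries, against 2.06, 0.87 and 0.873 CPM in control libraries (3.35 ± 0.37, adjusted p = 1.32e-07). FTSH6, a plastid protease known to degrade HSP21, had 7, 4 and 13 counts in recovery libraries, against 1, 0 and 1 counts in control libraries (adjusted p = 0.0177), after log2 fold changes of 7.46 at 0 h and 4.91 at 1 h. With 1 library left out, the call was lost for NIA1 without any 1 of the recovery libraries or control replicate 1 or 2 (adjusted p = 0.0612 to 0.14), for NIA2 without any 1 of the recovery libraries or control replicate 2 (0.0557 to 0.143), for NRT2:1 without recovery replicate 2 or control replicate 2 or 3 (0.051 to 0.143; without recovery replicate 1 it did not pass the filter on low counts) and for FTSH6 without recovery replicate 3 or control replicate 1 or 2 (0.0569 to 0.169) or with that ZT60 library kept (0.062).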
